A study of Sus scrofa with 6 samples.

Results

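The genes described here code for the subunits and helpers of the proteasome and for the enzymes that attach or remove ubiquitin. They were chosen by name, as every gene whose pig name begins with *PSMA* to *PSMG*, *UBE2*, *UBA* or *UCHL*, and 60 of the 17950 genes of the deposited table were found in this way. Ensembl gene names identified 59 of them, and 1 gene, *UBE2D2*, was named in the supplementary tables of the study only. The RefSeq annotation of the pig holds 102 protein-coding genes with such names, and 44 of these names, among them *PSMB5*, *PSMB6*, *PSMB10*, *UBE2C* and *UBE2N*, were matched to no gene of the table and are not analysed here.

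Granulosa cells (GCs), the somatic cells that surround the oocyte and make steroids, were taken from the follicles of pre-pubertal Landrace gilts and cultured. In the pLVX-*RBP4* group the cells were infected with a lentivirus that carried porcine *RBP4*, the plasma carrier of retinol, together with the green fluorescent protein ZsGreen. In the CTRL group the same vector without *RBP4* (pLVX-IRES-ZsGreen) was used, so both groups were infected and both carried ZsGreen. RNA was taken 72 h after infection, with 3 libraries in each group, and the table holds 1 value per gene and group. The unit is FPKM, the fragments of a gene scaled to transcript length and to all mapped fragments, which allows levels of different genes to be compared. The spread between the 3 libraries of a group and the depth behind a value are not known from this table, so no test, error or interval could be given, and each comparison below is between 2 group values. Where a pair of FPKM values follows a gene, the CTRL value comes first.

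Proteins that a cell is to destroy are marked with chains of the small protein ubiquitin. An E1 enzyme activates ubiquitin, an E2 enzyme receives it, and an E3 ligase helps the E2 to place it on the target. The chain is recognised by the regulatory particle of the proteasome, which unfolds the target with its ring of ATPases and feeds it into the core particle, a barrel of alpha and beta rings with the protease sites inside. Deubiquitinating enzymes take ubiquitin off again. In the ovary, as in other tissues, this system controls the turnover of cell cycle proteins, transcription factors and misfolded proteins.

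The targeted gene followed the labels. *RBP4* (ENSSSCG00000010479) had 1.105 FPKM in CTRL and 92.3 FPKM in pLVX-*RBP4*, and this value includes reads of the introduced sequence. Of 11 granulosa cell markers, 6 were found by name, and all were above 1 FPKM in both groups, from *FSHR* with 9.99 and 8.47 FPKM to *CYP11A1* with 672.9 and 669.4 FPKM. *FST* had 20.5 and 24.7 FPKM, and *CYP19A1*, *FOXL2* and *AMH* were not among those found. Markers of other cells were also measured. Of 4 stromal markers 3 were found, with 644.1 and 687.8 FPKM for *ACTA2*, 168.6 and 210.1 FPKM for *DCN*, and 12.6 and 11.2 FPKM for *PDGFRA*. Of 4 leukocyte markers 3 were found, and *PTPRC*, which all leukocytes carry, had 0.229 and 0.166 FPKM, with 42.9 and 48.9 FPKM for *CD14* and 4.02 and 4.59 FPKM for *CD68*. The endothelial marker *PECAM1* had 16.3 and 16.0 FPKM, and the epithelial marker *EPCAM* 0.325 and 0.199 FPKM. The oocyte marker *GDF9* had 3.36 and 3.51 FPKM. The theca cell marker *INSL3* had a listed 0 in CTRL and 0.292 FPKM in pLVX-*RBP4*. The part of the cell mixture in the differences below was not tested.

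Differences between the groups are given as the difference of log2(FPKM + 1), pLVX-*RBP4* minus CTRL. A signed value in parentheses after a pair of FPKM values is this difference. The scale understates the change of weakly expressed genes. Genes whose 2 group values averaged 1 FPKM or more were compared, which left 12382 genes in all and 54 of the 60 members. The other 6 members, *PSMB8*, *PSMB9*, *UBE2D2*, *UBE2T*, *UBASH3A* and *UBASH3B*, are described by their values alone. In RNA from a whole culture, fewer cells of a type and less RNA per cell cannot be told apart.

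The system was strongly expressed. The 54 members had a median of 51.8 FPKM (mean of both groups), against 12.1 FPKM for all 12382 genes, and 52 of the 54 lay above the median of all genes. Altogether 38 of the 54 were higher in the pLVX-*RBP4* group, while 50.2% of all genes were. By at least 0.2 on the log2 scale, 17 members (31.5%) were higher and 4 (7.41%) lower, beside 16.8% and 14.3% of all genes. None of the 54 differed 2-fold on this scale, as 0.953% of all genes did, and they ranged from -0.27 for *UBAP2L* to 0.48 for *UCHL3*. The share of higher genes grew with the level among all genes as well. It was 46.1% for genes with a mean of 1 to 10 FPKM, 47.4% from 10 to 30 FPKM, 57.0% from 30 to 100 FPKM and 65.0% from 100 to 300 FPKM. In these ranges 1 of 2, 10 of 16, 17 of 23 and 10 of 12 members were higher. Above 300 FPKM it was 71.9%, and the single member there, *UCHL1*, had a difference of -0.011. By at least 0.2, 14.5%, 17.4% and 23.4% of all genes were higher from 10 to 30, 30 to 100 and 100 to 300 FPKM. In the same ranges 13.6%, 8.67% and 5.12% of all genes were lower by at least 0.2. Of the members there, 3 of 16, 8 of 23 and 6 of 12 were higher by this step, and 3, 0 and 0 lower. What part of the members' differences goes with their level was not tested. After rescaling to a common sum, 48 of the 54 members and 64.9% of all genes were higher. This sum rests in part on single very high values. The highest value was 399775 FPKM in CTRL, of a sum of 1129668.7 FPKM. In pLVX-*RBP4* it was 276137 FPKM, of a sum of 1068962.5 FPKM. With a common median, 47 of the 54 members and 62.5% of all genes were higher. With a common upper quartile, 40 of the 54 and 51.8% were. The sign turned under some scaling for 10 members, all within 0.067 of 0 as deposited, namely *UBA1*, *UBA7*, *UBE2G2*, *UBE2H*, *UBE2J2*, *UBE2L6*, *UBE2Q1*, *UBE2V1*, *UCHL1* and *UBAC2*.

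**Figure D1:**
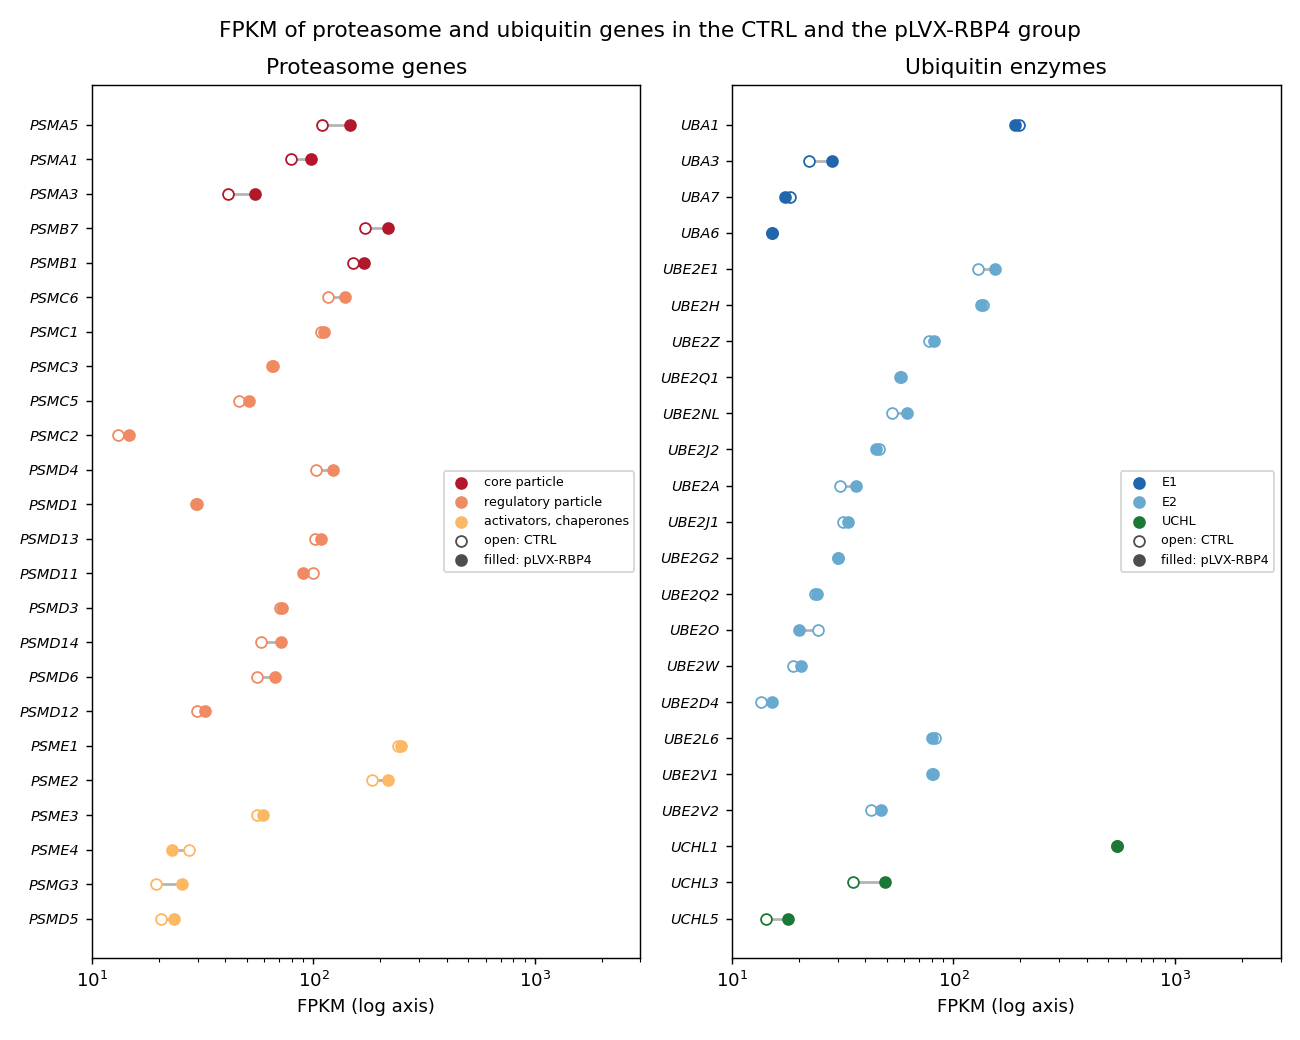
FPKM on a log axis of the proteasome genes and ubiquitin enzymes with a mean of at least 1 FPKM, except 1 E1 gene, with 1 gene per line, with an open circle for the CTRL value and a filled circle for the pLVX-*RBP4* value, each 1 group value without error. The 5 core particle genes all have the filled circle to the right, whereas the circles of most E1 and E2 genes nearly coincide.

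The core particle showed the largest differences of the groups of at least 5 genes. All 5 standard alpha and beta ring genes found by name were higher in the pLVX-*RBP4* group, beside 50.2% of all genes. At the levels of these genes, 57.0% (30 to 100 FPKM) and 65.0% (100 to 300 FPKM) of all genes were higher. By at least 0.2, 4 of the 5 were higher, beside 16.8% of all genes. This share was 17.4% from 30 to 100 FPKM and 23.4% from 100 to 300 FPKM. The median difference was 0.33, beside 0.0014 for all 12382 genes. Other standard core genes, such as *PSMA2*, *PSMB5* and *PSMB6*, were matched to no gene of the table. Summed over the 5 genes, the level was 552.4 FPKM in CTRL and 683.6 FPKM in pLVX-*RBP4*, a ratio of 1.24.

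The alpha ring forms the gated entrance to the chamber, and 3 of its genes were measured. *PSMA5* (ENSSSCG00000006830) had 109.0 FPKM in CTRL and 146.1 FPKM in pLVX-*RBP4*, a difference of 0.42. *PSMA3* (ENSSSCG00000005072), the least abundant of the 3, had 41.3 and 54.3 FPKM (0.39). *PSMA1* (ENSSSCG00000013391) had 79.2 and 97.8 FPKM (0.30). These genes differed by ratios between 1.23 and 1.34, although their levels in the CTRL group ranged from 41.3 to 109.0 FPKM.

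Of the beta ring, which carries the protease sites, *PSMB7* and *PSMB1* were measured. *PSMB7* (ENSSSCG00000005590) codes for the subunit with trypsin-like activity and was the most abundant core gene, with 171.6 FPKM in CTRL and 216.2 FPKM in pLVX-*RBP4* (0.33). *PSMB1* (ENSSSCG00000027257), a subunit without a protease site, had 151.2 and 169.2 FPKM, and its difference of 0.16 was the smallest of the core genes. Of the 13 genes of the regulatory particle, 4 had a larger difference than *PSMB1*, so the ranges of the 2 particles overlapped.

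The immunoproteasome is a form of the core in which subunits induced by interferon replace the standard protease subunits, and its genes were at the lower end of the values. *PSMB8* (ENSSSCG00000026951) was listed at 0 in both groups. *PSMB9* (ENSSSCG00000001463) had 0.499 FPKM in CTRL and 0.217 FPKM in pLVX-*RBP4*, a log2 ratio without the added 1 of -1.20 at a level below 1 FPKM. In the RefSeq assembly the only gene between these 2 genes is *TAP1*, a subunit of the peptide transporter for antigen presentation. *TAP1* was also near 0, with 0.0219 FPKM in CTRL and a listed 0 in pLVX-*RBP4*, and its partner *TAP2* had 1.015 and 1.017 FPKM. Other genes of the interferon response were well above this level. *TAPBP*, the peptide loading factor, had 102.7 and 96.0 FPKM, and *MX1*, an antiviral GTPase, had 223.3 and 186.6 FPKM. Of 15 interferon and antigen processing genes, 10 were found, 9 of them with a mean of at least 1 FPKM, and of these 4 were higher and 5 lower, with a median difference of -0.035 that was 0.018 after rescaling to a common sum.

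In the regulatory particle, 12 of 13 genes had a higher value in pLVX-*RBP4*, beside 50.2% of all genes, a share that grew with the level as given above. As a median, the differences were smaller than in the core. By at least 0.2, 4 of the 13 (30.8%) were higher, beside 16.8% of all genes, a share that varied with the level as given above. The median difference was 0.13. The summed level was 895.9 FPKM in CTRL and 975.5 FPKM in pLVX-*RBP4*, a ratio of 1.09. The median of the core lay 0.21 above that of the regulatory particle, and this gap was not tested.

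The ring of ATPases unfolds the substrate, and all 5 measured genes of it were higher. *PSMC6* (ENSSSCG00000005038) had 116.6 FPKM in CTRL and 138.7 FPKM in pLVX-*RBP4*, a difference of 0.25. *PSMC5* had 45.9 and 51.2 FPKM and *PSMC2* 13.1 and 14.6 FPKM, each with 0.16. *PSMC1* (108.2 and 111.9 FPKM) and *PSMC3* (64.9 and 66.0 FPKM) differed by 0.048 and 0.023. Among the 18 compared subunits of both particles, *PSMC2* had the lowest level and *PSMB7* the highest, 13.2-fold apart in the CTRL group and 14.8-fold in the pLVX-*RBP4* group.

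The 2 measured genes of the base without ATPase activity differed from each other. *PSMD4* (ENSSSCG00000006628), a receptor that binds ubiquitin chains, had 103.0 and 123.1 FPKM, a difference of 0.26. *PSMD1* (ENSSSCG00000016272), a scaffold subunit, had 29.5 and 29.8 FPKM (0.016).

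The lid holds the subunit that cuts the ubiquitin chain off the substrate, and 5 of its 6 measured genes were higher. This subunit is coded by *PSMD14* (ENSSSCG00000015892), which had 57.9 FPKM in CTRL and 71.6 FPKM in pLVX-*RBP4*, at 0.30 the largest difference of the regulatory particle. *PSMD6*, a scaffold gene, had 55.6 and 66.8 FPKM (0.26). The other scaffold genes *PSMD12* (29.7 and 32.4 FPKM), *PSMD13* (101.1 and 108.4 FPKM) and *PSMD3* (70.7 and 71.8 FPKM) differed by 0.13, 0.099 and 0.021. *PSMD11* (ENSSSCG00000017731) was the only one of the 18 compared genes of both particles with a lower value in pLVX-*RBP4*, with 99.9 and 89.2 FPKM and a difference of -0.16, and it stayed lower after each scaling that was tried.

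**Figure D2:**
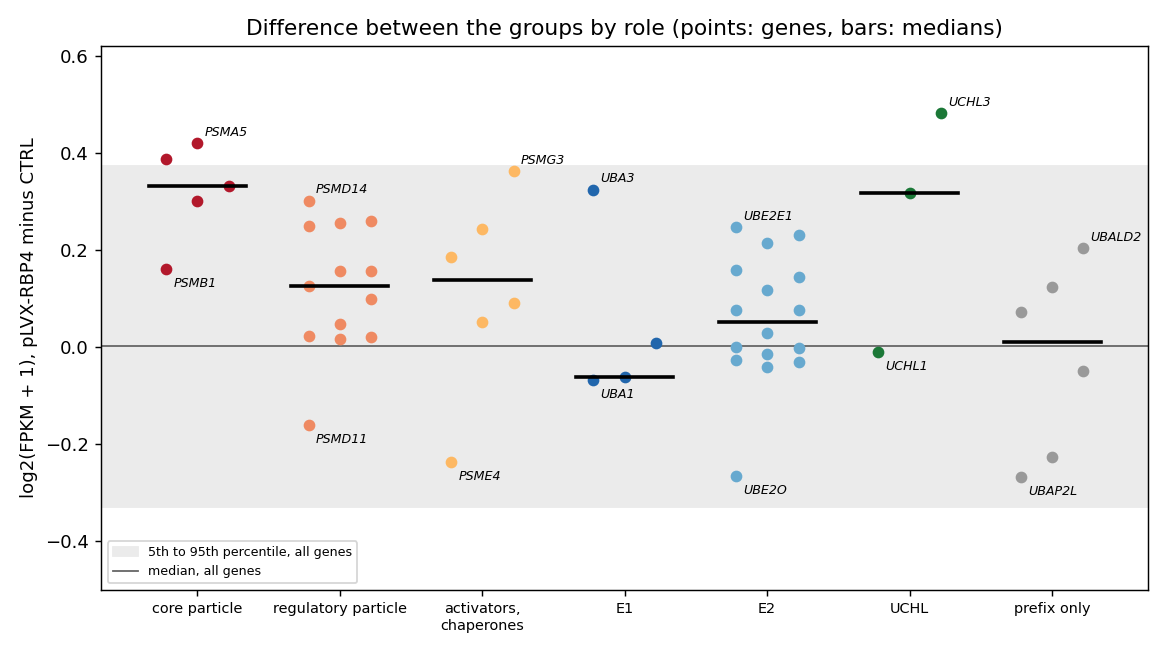
Difference of log2(FPKM + 1) between the groups for the members with a mean of at least 1 FPKM, by role, with a bar at the median of all 54 by role and 1 E1 gene not drawn. The grey band runs from the 5th to the 95th percentile of all 12382 genes (-0.33 to 0.37), and the core particle lies between 0.16 and 0.42.

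Beside the regulatory particle, the core can be capped by other activators. *PSME1* and *PSME2* code for the 2 subunits of the activator PA28, and in the RefSeq assembly they are neighbours with only *EMC9* between them. *PSME1* (ENSSSCG00000002006) had 239.6 FPKM in CTRL and 248.3 FPKM in pLVX-*RBP4*, a difference of 0.051, and was the most abundant proteasome gene. *PSME2* (ENSSSCG00000002004) had 183.3 and 217.3 FPKM (0.24). The ratio of the groups was thus 1.04 for one subunit of the ring and 1.19 for the other. *PSME3*, the nuclear relative of PA28, had 55.5 and 59.2 FPKM (0.092). *PSME4* (ENSSSCG00000008412), which codes for the large activator PA200, was lower in the pLVX-*RBP4* group, with 27.3 and 23.0 FPKM (-0.24).

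Of the chaperones that help to assemble the proteasome and leave it afterwards, *PSMG3* and *PSMD5* were measured. *PSMG3* (ENSSSCG00000007556), which acts on the alpha ring of the core, had 19.5 FPKM in CTRL and 25.4 FPKM in pLVX-*RBP4*, a difference of 0.36. *PSMD5* (ENSSSCG00000005507), which acts on the ATPase ring, had 20.5 and 23.4 FPKM (0.19). Of the 6 genes of activators and chaperones together, 5 were higher, beside 50.2% of all genes, with a median of 0.14. By at least 0.2, 2 were higher and 1 was lower, beside 16.8% and 14.3% of all genes.

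The E1 enzymes, which start the pathways of ubiquitin and its relatives, showed no common direction. As deposited, 2 of the 5 were higher and 3 lower, with a median of -0.062, while 50.2% of all genes were higher. After rescaling to a common sum, 4 of the 5 and 64.9% of all genes were higher, and the E1 median was 0.013. *UBA1* (ENSSSCG00000012270), the main E1 of ubiquitin, had 198.4 FPKM in CTRL and 189.3 FPKM in pLVX-*RBP4*, a difference of -0.067 that became 0.012 after rescaling to a common sum. *UBA6*, the second E1 of ubiquitin, had 15.1 and 15.2 FPKM (0.0080). *UBA1* was thus far more abundant than *UBA6*, and neither differed by as much as 0.1.

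The E1 genes of other modifiers had lower levels than *UBA1*. *UBA3* (ENSSSCG00000011506), the catalytic subunit of the E1 of NEDD8, the modifier that switches on cullin ligases, had 22.3 FPKM in CTRL and 28.2 FPKM in pLVX-*RBP4*. Its difference of 0.32 was the only one of the E1 genes beyond 0.2. *UBA7*, the E1 of the interferon-induced ISG15, had 18.2 and 17.4 FPKM (-0.062).

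Of the 18 E2 genes, 16 had a mean of at least 1 FPKM. Of these, 9 had a higher and 7 a lower value in pLVX-*RBP4*, while 50.2% of all genes were higher. The median was 0.052, and 12 of the 16 differed by less than 0.2. After rescaling to a common sum 15 of the 16 and 64.9% of all genes were higher. The balance of directions thus depended on the scaling, among the E2 genes and among all genes. The 3 largest differences upward and the largest downward kept their direction after each scaling.

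*UBE2E1* (ENSSSCG00000026488), an E2 of wide use, was the E2 gene with the highest level in the pLVX-*RBP4* group. It had 129.6 FPKM in CTRL and 153.9 FPKM in pLVX-*RBP4*, a difference of 0.25, the largest among the E2 genes. *UBE2A* (ENSSSCG00000012621), which marks histone H2B and the sliding clamp of replication, had 30.8 and 36.3 FPKM (0.23). The gene named *UBE2NL* (ENSSSCG00000000908) had 52.8 and 61.5 FPKM (0.21). *UBE2NL* is a near-identical relative of *UBE2N*, the E2 for the ubiquitin chains of DNA repair and immune signalling. Which of these genes the identifier stands for, and how reads were divided between such copies, is uncertain. The partners of *UBE2N*, the E2 variants without an active site, were *UBE2V2* with 42.6 and 47.2 FPKM (0.15) and *UBE2V1* with 80.7 and 79.9 FPKM (-0.014).

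At the other end, *UBE2O* (ENSSSCG00000029901), a large enzyme that combines E2 and E3 activity, had 24.4 FPKM in CTRL and 20.1 FPKM in pLVX-*RBP4*. Its difference of -0.27 was the only one of the E2 genes of at least 0.2 downward. The next lower value among the E2 genes was -0.042 for *UBE2L6*, the E2 of ISG15, with 82.2 and 79.9 FPKM, and this sign turned after rescaling to a common sum. *UBE2H*, the E2 with the highest level in the CTRL group, had 136.3 and 133.8 FPKM (-0.026, and above 0 after rescaling).

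E2 enzymes at the endoplasmic reticulum, which mark misfolded proteins pulled back into the cytosol, differed by less than 0.1. *UBE2J1* had 31.7 and 33.5 FPKM (0.075), *UBE2J2* had 45.9 and 44.9 FPKM (-0.031), and *UBE2G2* had 30.17 FPKM in both groups. The other E2 genes differed by 0.16 or less. *UBE2D4* had 13.5 and 15.2 FPKM (0.16). *UBE2W*, which ubiquitinates the N terminus of proteins, had 18.9 and 20.6 FPKM (0.12). *UBE2Z*, which works with *UBA6*, had 77.6 and 81.9 FPKM (0.076). *UBE2Q2* had 23.8 and 24.3 FPKM (0.028) and *UBE2Q1* 57.7 and 57.6 FPKM (-0.0022). Both genes that act on ISG15, *UBA7* and *UBE2L6*, and both that form the pair of *UBA6* and *UBE2Z*, therefore differed by less than 0.1.

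A pair of E2 genes were listed at or near 0. *UBE2T*, the E2 of the Fanconi anaemia repair pathway, had 0.0747 FPKM in CTRL and 0.0501 FPKM in pLVX-*RBP4*. The gene that the study names *UBE2D2* (ENSSSCG00000024306) had a listed 0 in CTRL and 0.329 FPKM in pLVX-*RBP4*. In a table without read counts a listed 0 can be a failed estimate, so it is not read as absent expression. *UBE2T* is known from dividing cells, and of 20 mitotic genes 14 were found, of which 12 had a higher value in pLVX-*RBP4*, 6 of them by at least 0.2, with a median of 0.17, beside 50.2% and 16.8% of all genes.

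The UCHL genes code for small deubiquitinating enzymes, and 2 of the 3 were among the larger differences. *UCHL3* (ENSSSCG00000009466), which also processes the precursors of ubiquitin and NEDD8, had 35.0 FPKM in CTRL and 49.3 FPKM in pLVX-*RBP4*. Its difference of 0.48, a ratio of 1.41, was the largest of the 54 members, and 310 of the 12382 genes had a larger one. *UCHL5* (ENSSSCG00000010802), an enzyme bound to the regulatory particle, had 14.2 and 17.9 FPKM (0.32). *UCHL1* (ENSSSCG00000022945), known from neurons and gonads, was the most abundant of the 60 genes, with 549.9 and 545.8 FPKM and a difference of -0.011, which was above 0 after rescaling to a common sum.

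The proteasome works with 3 deubiquitinating enzymes, namely *PSMD14*, *UCHL5* and *USP14*, and their values differed. *PSMD14* and *UCHL5* were higher in the pLVX-*RBP4* group by 0.30 and 0.32, as given above. *USP14*, which trims chains on the regulatory particle and is no member by name, had 31.7 and 30.9 FPKM (-0.039).

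**Figure D3:**
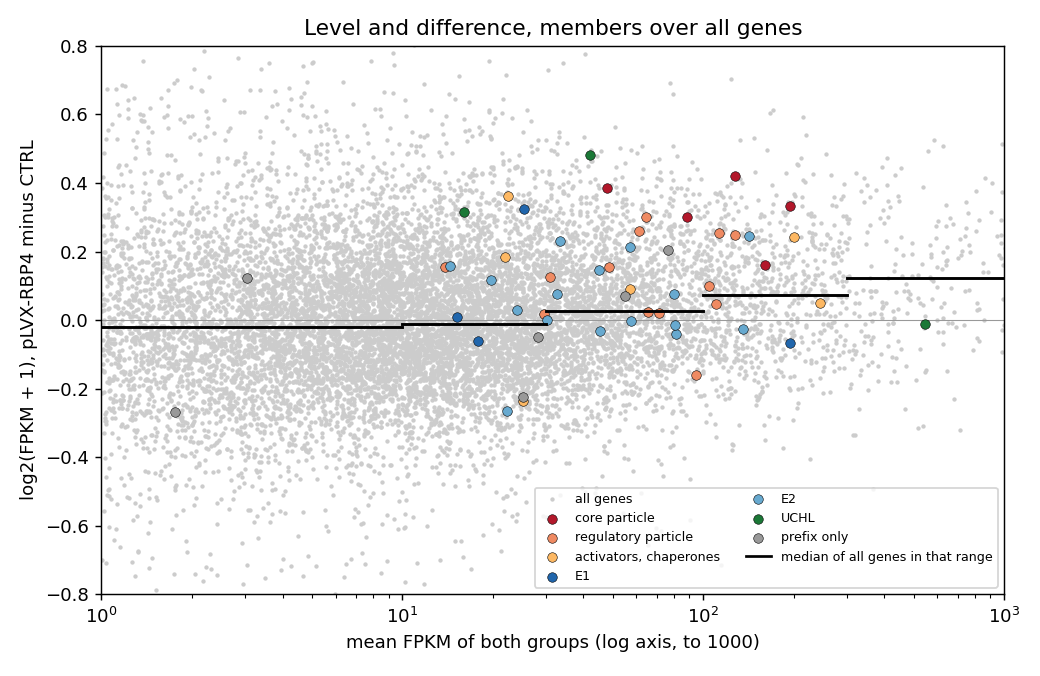
Difference of log2(FPKM + 1) between the groups against the mean FPKM of both groups on a log axis, with all genes in grey, members coloured by role, and black lines at the median of all genes in 5 ranges of level. From 100 to 300 FPKM the median of all genes was 0.074 and that of the 12 members 0.20, 1 E1 gene is not coloured, and genes beyond the axes are not shown.

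The prefixes also took in 8 genes that are neither proteasome subunits nor E1, E2 or UCHL enzymes, and 6 of them had a mean of at least 1 FPKM. Their median was 0.011, with 3 higher and 3 lower. *UBALD2* had 70.9 and 81.8 FPKM (0.20) and *UBAP1*, an adaptor of endosomal sorting, 53.6 and 56.4 FPKM (0.071). *PSMC3IP*, a meiotic recombination factor that only binds a proteasome ATPase, had 2.86 and 3.21 FPKM (0.12). *UBAC2*, of the endoplasmic reticulum, had 28.7 and 27.7 FPKM (-0.050). The remaining pair of relatives had the lowest differences of these 6 genes. *UBAP2* had 27.2 and 23.1 FPKM (-0.23), and its relative *UBAP2L* 2.01 and 1.504 FPKM (-0.27). *UBASH3B*, a phosphatase, had 0.695 and 0.701 FPKM, and *UBASH3A*, its relative of lymphocytes, had a listed 0 in CTRL and 0.0444 FPKM in pLVX-*RBP4*.

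A list of 42 names of other genes of the pathway, some of them synonyms, was compared, and 29 genes were found. Of these, 12 had a higher and 17 a lower value in pLVX-*RBP4*, 2 by at least 0.2 in each direction, with a median of -0.012. Among all genes, 50.2% were higher, and by at least 0.2, 16.8% were higher and 14.3% lower. After rescaling to a common sum 16 were higher and 13 lower, with a median of 0.065. *UBB*, which codes for a precursor of ubiquitin, was abundant, with 708.2 and 825.0 FPKM (0.22). Transcription factors of proteasome genes differed in direction. *NFE2L1* had 184.1 and 164.1 FPKM (-0.17) and *NFE2L2* 53.4 and 58.1 FPKM (0.12).

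The shuttle proteins that carry ubiquitinated substrates to the proteasome also went both ways. *RAD23B* had 46.6 and 51.5 FPKM (0.14), *UBQLN1* 57.8 and 58.6 FPKM (0.022) and *UBQLN4* 16.9 and 14.9 FPKM (-0.17). *VCP*, the segregase that extracts substrates, had 154.9 and 153.6 FPKM (-0.012). All 5 E3 and E4 ligase genes of the *UBE3* and *UBE4* families were lower in the pLVX-*RBP4* group as deposited and after each scaling, by differences from -0.30 for *UBE4A* (13.9 and 11.1 FPKM) to -0.13 for *UBE3A* (22.1 and 20.2 FPKM). These 5 genes were picked after their values were seen. *STUB1*, another E3 ligase gene of the list, was higher, with 103.1 and 108.5 FPKM (0.072). Of all genes, 50.2% were higher as deposited and 64.9% after rescaling to a common sum. *ECPAS*, a large adaptor of the proteasome, had 21.5 and 19.2 FPKM (-0.16), and *PAAF1*, which binds its ATPases, 16.1 and 15.9 FPKM (-0.010).

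**Figure D4:**
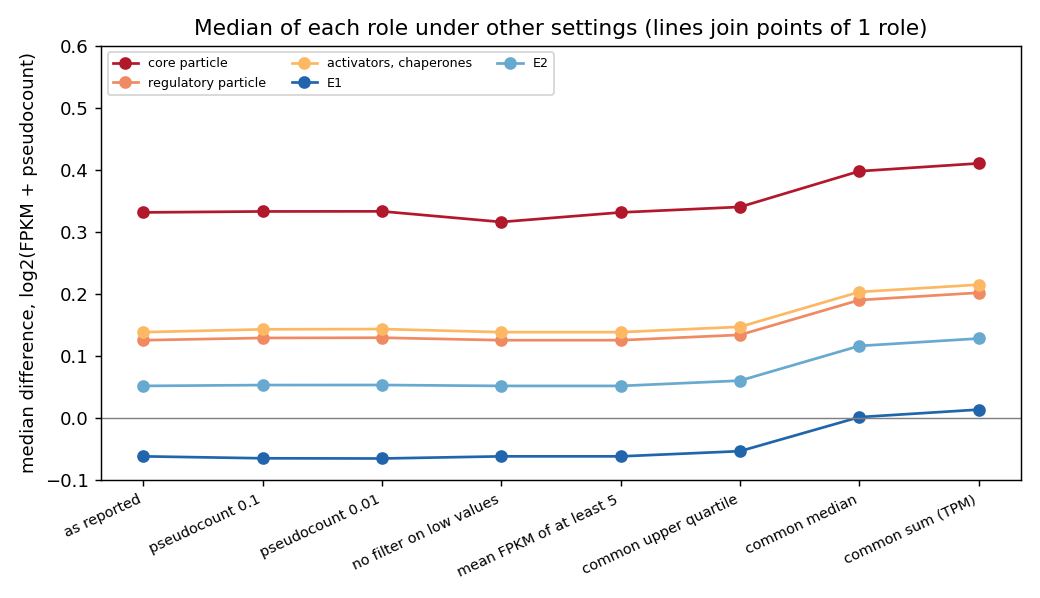
Median difference of log2 FPKM, with a pseudocount of 1 unless named otherwise, of 5 roles as reported and under 7 other settings named on the horizontal axis. The core particle stays highest, from 0.32 to 0.41, and the E1 genes move from below 0 to 0.0014 and 0.013 with scaling to a common median or sum.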

How the data were processed

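According to the study's methods, GCs of both groups were sequenced as paired-end reads, which were aligned to Sscrofa10.2 with TopHat2, and levels were expressed as FPKM. The methods name Cuffdiff of Cufflinks for the screening of differentially expressed genes. The tool that computed the FPKM values, tool versions and the annotation release were not given in the sources used here. The authors deposited 1 FPKM value per gene and group, so replicate spread is unknown from these values, and no test was run here. The study lists mapped reads by library, more in each pLVX-*RBP4* than in each CTRL library, but the deposited values do not give the reads behind a gene. The 2 columns were both used.

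The difference of log2(FPKM + 1) was taken for genes whose 2 group values averaged 1 FPKM or more. The members and lists were chosen with earlier results of these data known, and the step of 0.2 after the values were seen. All members were eligible to be named, by role. Some genes, 1 E1 gene among them, are counted but not reported here. A difference counts as moved from 0.1, a count above 1.5 times. Names were matched for 10757 genes. No annotation of Sscrofa10.2 was used, so coordinates are not given. The RefSeq table of a later assembly served for names and neighbours only. The calculation was checked on simulated data with a pseudocount of 0.01 only, not with the added 1 of the reported differences. Python 3.11.15, numpy 2.4.6 and pandas 2.3.3 were used. Alternatives were pseudocounts of 0.1 and 0.01, no filter, a limit of 5 FPKM, scaling to a common upper quartile, median or sum, means for medians, and other sets of names.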

Additional observations from a re-analysis of the deposited data

How the results depend on the processing

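No paired analysis was possible because the deposited table holds 1 value per gene and group, and for the same reason no library could be left out. Counts and medians of the 5 roles and of all members were recomputed under 91 alternatives. Of these, 85 kept the direction and moved by less than 0.1 (medians) or by at most 1.5 times (counts). The exceptions were all E1 or E2 results. The median of the E1 genes, -0.062 as deposited, was 0.0014 after scaling to a common median, 0.013 after rescaling to a common sum (TPM) and 0.018 as a mean. The number of higher E1 genes went from 2 to 4 with the common sum and to 3 with the common median. The number of higher E2 genes went from 9 to 15 of 16 with a common median or sum. These scalings shifted the median of all genes from 0.0014 to 0.061 and 0.072, and their share of higher genes from 50.2% to 62.5% and 64.9%. The 5 core genes and 12 of 13 regulatory genes were higher under each pseudocount and scaling, with medians from 0.33 to 0.41 and from 0.13 to 0.20, and with no filter 5 of 6 core genes were. Among single members, 10 changed sign under some scaling, all within 0.067 of 0 as deposited. Only *UBAP2L* moved by 0.1 or more, to -0.40 and -0.42 with pseudocounts of 0.1 and 0.01. Without the 8 genes that share only a prefix the median of the members was 0.11 in place of 0.095. How precise a single difference is cannot be said without values per library.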
